A study of Picea abies with 36 samples.

Results

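Among the 70736 gene models of the Norway spruce (Picea abies) read count table, the abundant ones whose level stayed nearly level under every hormone treatment and on every day are described here. Each count was divided by the library's total and multiplied by 1000000 to give CPM (a read count scaled to that common total), and CPM was averaged over the 3 libraries of each of 12 groups. A gene model was steady when its highest group mean was below 1.4 times its lowest. Of the steady models, the 200 with the largest lowest group mean were taken, so both their level and their small range over the groups were the choice itself and are given as a description. They were 200 of 70736 models, of which 18409 had no read in any library.

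The libraries came from hypocotyls, the stem segment between root and cotyledons, of seedlings about 2 weeks old, and their total RNA was sequenced. They had received 1 application of lanolin, a wool grease that served as carrier, and were sampled 5, 10 and 15 days later. The 4 treatments were BAP, a synthetic cytokinin, at 135 mM, IAA, the auxin indoleacetic acid, at 50 mM, BAP+IAA at those same concentrations, and Mock. Every combination of treatment and day had 3 libraries, 36 in all, holding 12531117 to 22280720 reads in gene models, and reads were seen for 39948 to 42914 models per library. Whether the 3 replicates of a group came from different plants is not said in the labels, and a p-value here covers the spread from library to library alone, possibly a technical one. The table's columns carry a collection number that was read as the order of the days. Which genes were chosen does not depend on that reading, but every value given for a day does.

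Cytokinins and auxins are plant hormones that act together on cell division, growth and the forming of vascular tissue in stems, and each changes the transcription of many genes. Genes whose messenger RNA stays at an even level across tissues and treatments are often those of basic cell functions, and such genes serve as references when the levels of others are compared. A steady share of the reads is not the same as a steady amount per cell, because CPM is relative to all other transcripts of the library. In whole hypocotyls, moreover, fewer cells of a type and less RNA per cell cannot be told apart. The table pairs its identifiers with no gene names, so the members are named by identifier and no function is given, and the tissue could not be checked against marker genes. Levels are per read and not per transcript length, so they order the genes by reads and not by molecules.

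Steadiness of this degree was uncommon among abundant genes. There were 1303 gene models at least as abundant as the least abundant member, whose lowest group mean was 88.5 CPM, and the members were 15.3% of them. Over all abundances, 2434 models met the limit of 1.4, which is 6.31% of the 38577 models with a mean above 0 in every group, and 2234 of these lay below the abundance of the members. The ratio of highest to lowest group mean ran from 1.118 to 1.3996 over the members with a median of 1.31. It was under 1.2 for 19 members and under 1.3 for 93, and the upper quartile was 1.36, so the list was crowded towards its limit. The 1103 other abundant models had a median ratio of 1.92 and reached 42.0, with 486 of them (44.1%) at 2 or above. Over 36291 tested models with every group mean above 0 the median ratio was 2.35.

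**Figure D1:**
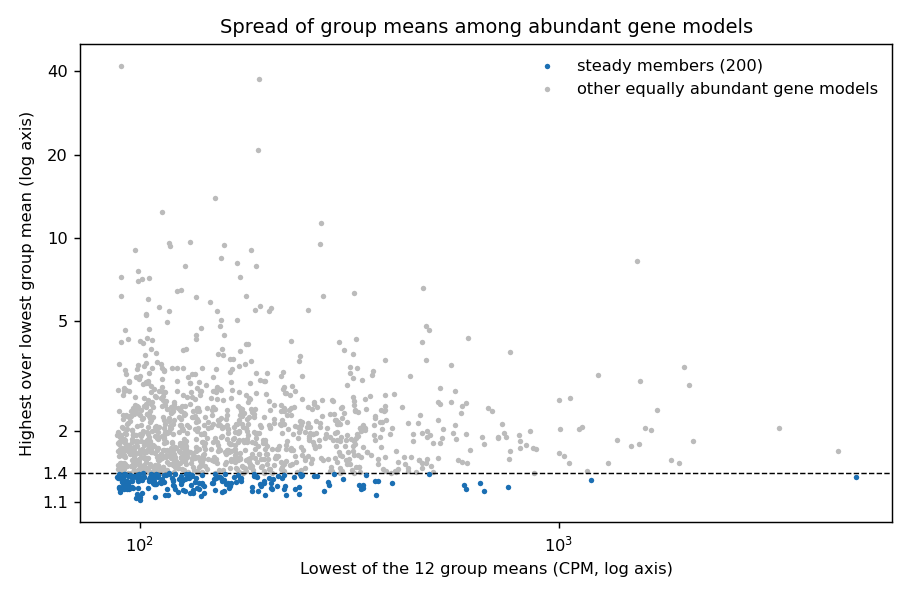
Ratio of highest to lowest group mean (y axis, log scale) against the lowest group mean in CPM (x axis, log scale) for the members and the 1103 other gene models of at least their abundance, 1 point per gene model. The members fill the band below the limit of 1.4, with quartiles at 1.25 and 1.36, and the other models spread up to 42.0.

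The edge of the list was continuous. The members nearest the limit were MA_91728g0010 with a ratio of 1.3996 and MA_91881g0010 with 1.3992, and the nearest abundant models beyond it were MA_127542g0020 with 1.40002 and MA_10433607g0010 with 1.4002. The last member by abundance was MA_10432047g0010 with a lowest group mean of 88.48 CPM, and MA_34399g0010, steady with a ratio of 1.29, fell just short with 88.47 CPM. No gap in ratio or in level set the members apart from the gene models next to them.

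Most members were of moderate level, and 1 stood far above the rest. Mean CPM over all 36 libraries had a median of 149 and a lowest value of 99.0, with 198 members at 100 or more, 59 at 200 or more and 8 at 500 or more. A member had 1000 to 152607 reads in a library, with a median of 2325, so counting error was small for all of them. By mean CPM, 5 members were among the 100 most abundant gene models of the hypocotyl and 82 among the 1000 most abundant. Together the members took 4.17 to 4.72% of the reads of a library. The summed share was 4.61 ± 0.103, 4.59 ± 0.0568 and 4.59 ± 0.0401% in BAP at 5, 10 and 15 days (SD, n = 3 each). It was 4.57 ± 0.0671, 4.27 ± 0.0597 and 4.24 ± 0.0826% in IAA and 4.56 ± 0.0386, 4.53 ± 0.0376 and 4.57 ± 0.0466% in BAP+IAA, against 4.44 ± 0.0975, 4.38 ± 0.0208 and 4.36 ± 0.0686% in Mock. IAA at 10 and 15 days had the lowest sums, and BAP at 5 days the highest.

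The gene model with the most reads in the hypocotyl was itself a member. MA_434977g0010 averaged 6173 CPM over all libraries and took 11.3 to 15.3% of the members' reads. In BAP its 3 libraries held 6623, 6665 and 6545 CPM at 5 days, 6865, 7071 and 6598 CPM at 10 days and 6689, 6394 and 6489 CPM at 15 days. In IAA they held 6763, 6849 and 7072 CPM at 5 days, 5363, 5151 and 4770 CPM at 10 days and 5513, 4994 and 5023 CPM at 15 days. BAP+IAA libraries had 6392 to 6829 CPM over the 3 days with a median of 6666, against 5248 to 5925 CPM with a median of 5779 in Mock. Every BAP and BAP+IAA library was above every Mock library, while IAA was above Mock at 5 days and had 4 libraries of 10 and 15 days below all Mock libraries. Its highest group mean was 6895 ± 159 CPM in IAA at 5 days and its lowest 5095 ± 301 CPM in IAA at 10 days (SD, n = 3 each), a ratio of 1.353.

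The next members by level differed in which treatment stood apart. MA_10427661g0030, at rank 32 of all gene models, had a lowest, median and highest value of 1224, 1322 and 1481 CPM in the 9 BAP libraries, 1167, 1303 and 1435 CPM in IAA and 1241, 1350 and 1429 CPM in BAP+IAA, against 1466, 1542 and 1659 CPM in Mock. Mock was the highest, with no overlap with IAA or BAP+IAA and a small overlap with BAP. MA_112179g0010, at rank 78, had 744.9, 769.6 and 868 CPM in BAP, 729.3, 793 and 839.6 CPM in IAA and 830.3, 913.5 and 992.7 CPM in BAP+IAA, against 752.1, 801.7 and 887.9 CPM in Mock. In these total-count values BAP+IAA was the highest and the other 3 treatments lay over each other. With TMM in edgeR its log2 change over the 3 days was -0.14 ± 0.038 in BAP (SE), called lower than Mock (adjusted p = 0.0024). It was 0.16 ± 0.038 in BAP+IAA, called higher (edgeR adjusted p = 0.00073), and IAA was not called.

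With total counts the members closest to level were MA_89633g0010 and MA_67531g0010, with ratios of 1.118 and 1.143. With TMM their ratios were 1.195 and 1.186, and the lowest were those of MA_10437041g0010 (1.117) and MA_1464g0010 (1.1215), named after their values were seen. MA_89633g0010 had 101, 103 and 118 CPM as lowest, median and highest in BAP, 94.3, 106 and 116 CPM in IAA and 105, 111 and 116 CPM in BAP+IAA, against 98.0, 105 and 122 CPM in Mock. MA_67531g0010 had 91.9, 106 and 110 CPM in BAP, 97.3, 101 and 111 CPM in IAA and 95.2, 107 and 115 CPM in BAP+IAA, against 89.4, 97.9 and 107 CPM in Mock. All 4 treatments overlapped for both.

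**Figure D2:**
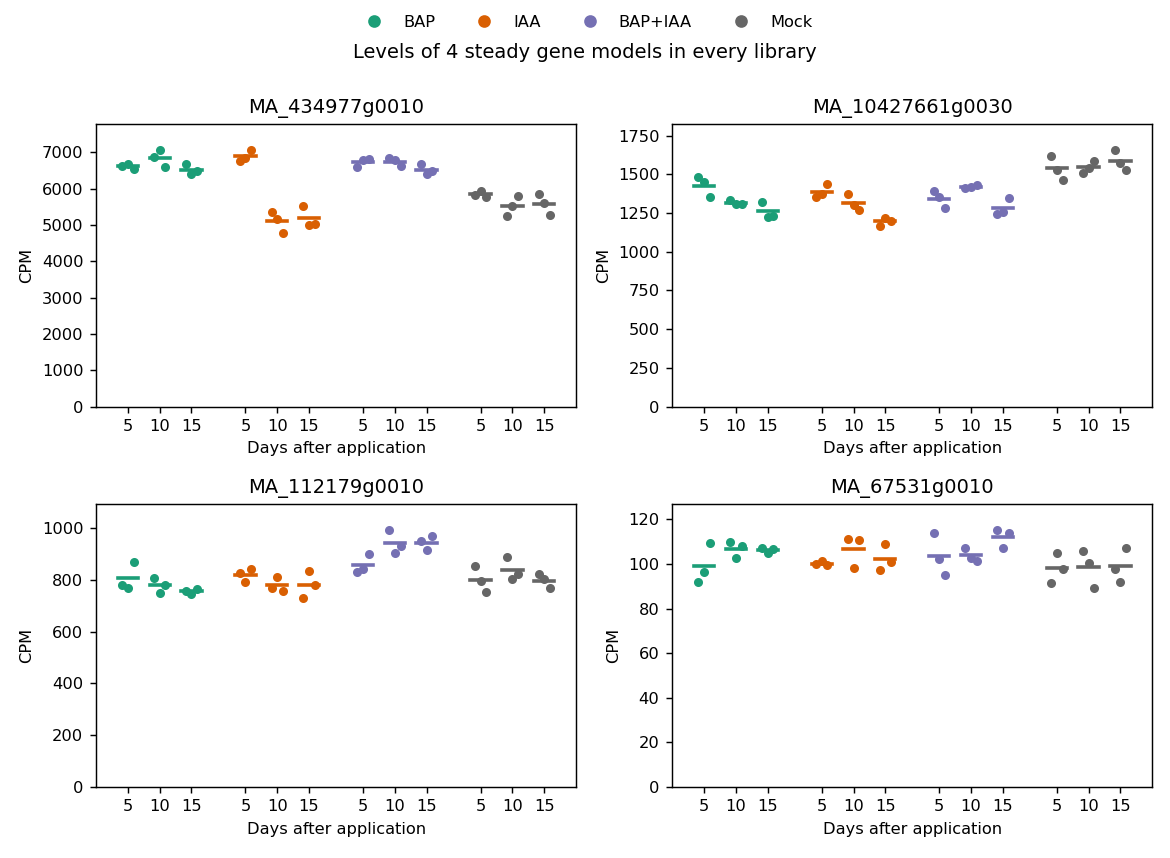
CPM of 4 members in every library (y axis from 0) by treatment and day after application (x axis), 1 point per library and a line at each group mean (n = 3). The points of MA_67531g0010 overlap in all treatments, those of MA_434977g0010 in IAA are high at 5 days and low at 10 and 15 days, MA_10427661g0030 is highest in Mock and MA_112179g0010 is highest in BAP+IAA.

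The members were also even between replicates. The SD of log2 CPM (prior count 2) between the 3 libraries of a group, pooled over the 12 groups, had a median of 0.083 over the members and ran from 0.040 to 0.191. The median was 0.116 over the other abundant models and 0.304 over all tested models. It was under 0.15 for 191 members (95.5%) and for 779 of the 1103 others (70.6%). Replicate noise widens the ratio of group means, so the choice itself favours genes of low spread and the difference is a description. Counting alone would give a median SD of 0.030, and the observed SD was above the counting value for all 200 members, by a median factor of 2.87.

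Single members spanned this range. MA_13350g0010 had the smallest SD, 0.040, with 202.5, 202.5 and 202.7 CPM in BAP+IAA at 15 days. Its BAP libraries had 183 to 216 CPM, its IAA libraries 178 to 193 CPM and its BAP+IAA libraries 195 to 212 CPM, against 150 to 178 CPM in Mock. All of its hormone libraries but 1 IAA library were above the highest Mock library, so the gene with the smallest spread between replicates still differed between treatments. MA_10721g0020 had the largest SD, 0.191, with 69.8, 97.6 and 102 CPM in Mock at 5 days. Over all 36 libraries taken singly, the highest value of a member was a median of 1.47 times its lowest, and it was under 2 times for 198 of 200 members and for 368 of the 1103 others.

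The replicates gave a reading of steadiness in libraries that did not choose the genes. The choice was repeated with 1 replicate number left out, and the 200 genes chosen from the other 24 libraries were read in the 12 libraries left out, 1 per group. With replicate 1, 2 or 3 left out the new list shared 154, 171 and 172 genes with the members, and 124 members were on all 3 lists. The median ratio in the choosing libraries was 1.32, 1.31 and 1.31, and in the left-out libraries it was 1.357, 1.358 and 1.3996, where single libraries take the place of means. The share of listed genes under 1.4 in the left-out libraries was 65.5, 62 and 50%, compared with 4.75, 3.81 and 1.604% of the other equally abundant models, whose median ratios were 1.98, 1.93 and 2.06. All listed genes but 1 were under 2 in the left-out libraries.

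**Figure D3:**
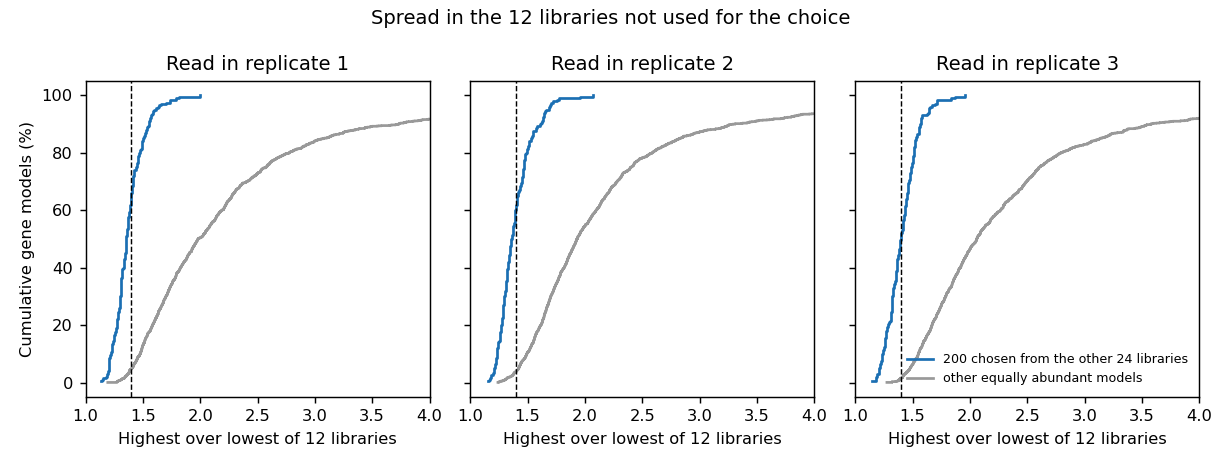
Ratio of highest to lowest value over the 12 left-out libraries (x axis, drawn up to 4) for genes chosen as steady in the other 24 libraries and for the other equally abundant gene models, 1 panel per left-out replicate number. The listed genes centre at 1.357 to 1.3996 and the others at 1.93 to 2.06.

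Replicate number was the 1 factor the choice averaged over, and it was tested. The choice still favours genes of low spread between replicates, so the members' shares beside those of other models are a description. In an edgeR quasi-likelihood model with the 12 groups and the replicate number, with Benjamini-Hochberg adjustment over all 38239 tested models at 0.05, 3 of 200 members differed between replicate numbers, while 2.96% of all tested models and 54 of the 1103 other abundant ones did. At an unadjusted p under 0.05 there were 18 members (9%), against 12.6% of tested models. The log2 difference of replicate 2 from replicate 1 ran from -0.14 to 0.25 over the members and that of replicate 3 from replicate 1 ran from -0.15 to 0.23.

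MA_27769g0010 passed with an adjusted p of 0.003 (edgeR), with 123 to 182 CPM in replicate 2, 125 to 189 CPM in replicate 3 and 113 to 164 CPM in replicate 1. MA_18179g0010 passed with an adjusted p of 0.014 (edgeR), with 99.5 to 165 CPM in replicate 2, 110.4 to 154 CPM in replicate 3 and 95.4 to 137 CPM in replicate 1. MA_10432047g0010 passed narrowly with an adjusted p of 0.048 (edgeR), and the call was lost without any single one of 26 of the 36 libraries. For each of the 3 genes replicate 1 was the lowest library in 10 of 12 groups, and the replicates overlapped over the whole set.

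Within the limit of 1.4, the members still differed between groups by more than their replicates did. An edgeR test of any difference among the 12 groups called 176 of the 200 members, where 76.9% of all tested models and 1098 of the 1103 other abundant models were called. Because the choice used these group means, nothing is read from this count beyond the word steady itself, which stands for a small range and not for the absence of change. The SD of a member's 12 log2 group means had a median of 0.123, against 0.0477 that its replicate spread alone would give, and it was above that value for 198 members. The other abundant models had a median SD of group means of 0.305. Of the variance between group means, a median of 59.9% lay between treatments, 16.7% between days and 19.0% in treatment by day over the members, compared with 71.8, 12.7 and 11.8% over the other abundant models. Treatment was the largest of these parts for 137 members, day for 35 and treatment by day for 28. Replicate spread was not taken out of the parts, which also differ in degrees of freedom. The SD of group means was a median of 2.42 times that from replicate spread over the members and 4.41 times over the other abundant models. Noise thus weighs more in the members' parts, and nothing is read from the difference between the sets.

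The order of the members by level was nearly kept from group to group. Spearman's rho of the 200 levels between pairs of groups was 0.897 to 0.990, lowest between IAA at 5 days and BAP+IAA at 15 days, as a description over genes of very different level. The small differences that remained were arranged by treatment. For all 36 libraries the most similar other library over the members' log2 CPM was of the same treatment, and for 25 it was of the same treatment and day. Over the 1103 other abundant models these numbers were 36 and 30. With each library first centred on its median member, they were 36 and 25 for the members.

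Against Mock, averaged over the 3 days, 92 members passed the threshold in BAP, 107 in IAA and 124 in BAP+IAA. Over all tested models 49.6, 58.4 and 62.5% passed, and over the other abundant models 77.9, 82.1 and 86.2% did. These contrasts were used in the choice, so nothing is read from the members' counts. The choice also limited how far group means could lie apart, so the small sizes of the members' changes are given as a description. Their median absolute log2 change was 0.097 in BAP, 0.117 in IAA and 0.131 in BAP+IAA. It was 0.351, 0.426 and 0.477 over all tested models, and 0.339, 0.397 and 0.452 over the other abundant models. The standard error had a median of 0.041 over the members and 0.145 over all tested models, and called changes went down to log2 values of 0.080, 0.085 and 0.072. The changes ran from -0.38 to 0.27 in BAP, from -0.37 to 0.40 in IAA and from -0.37 to 0.39 in BAP+IAA.

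Day by day, the members called were 43, 53 and 48 in BAP at 5, 10 and 15 days, where 24.4, 29.7 and 31.5% of all tested models were called. Without Mock 10 days replicate 1 the count for BAP at 10 days was 31, without BAP 10 days replicate 3 it was 34 and without Mock 10 days replicate 3 it was 35. IAA had 86, 68 and 54 members called, where 46.6, 39.1 and 32.4% of all tested models were called. BAP+IAA had 66, 72 and 89, where 43.2, 44.2 and 43.9% were called. Of the other abundant models, 59.0% (BAP at 5 days) to 78.8% (IAA at 5 days) were called in these 9 comparisons. There were 38 members (19%) without a call in any of the 9 same-day comparisons, compared with 22.1% of all tested models and 10 of the 1103 other abundant ones.

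The choice of members used these group means, so the patterns of calls are given as a description. In the means of the 3 days 46 members were called in all 3 treatments, 68 in 2, 49 in 1 and 37 in none, where 32.3, 27.1, 19.3 and 21.3% of all tested models were. Of the other abundant models 60.1, 28.6, 8.61 and 2.63% were. All 3 treatments were lower than Mock for 27 members and higher for 17, and 23 were higher in IAA and BAP+IAA without a call in BAP, where 14.9, 14.7 and 7.16% of all tested models were. Of the other abundant models 21.6, 32.2 and 7.25% had these 3 patterns. A further 17 members were higher in BAP+IAA alone, and 13 were lower in BAP and BAP+IAA without a call in IAA. Another 12 were higher in IAA alone, and 11 had opposite signs in different treatments. Over all tested models 3.76, 4.37, 4.38 and 5.67% had these patterns, and over the other abundant models 1.72, 3.45, 1.09 and 12.1% did. The 3 comparisons share their Mock libraries, and with total-count scaling 25 members were higher in all 3 and 19 lower, where 15.6 and 13.1% of all tested models were, so the balance of the 2 directions switched with the scaling. With total counts 7 members had opposite signs, where 5.93% of all tested models and 12.3% of the other abundant ones did.

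In the mean of the 3 days the largest called rises against Mock were those of MA_31569g0020 and MA_10426488g0010. MA_31569g0020 had a lowest, median and highest value of 129, 139 and 152 CPM in BAP, 138, 150 and 162 CPM in IAA and 134, 143 and 155 CPM in BAP+IAA, against 110, 117 and 123 CPM in Mock. No hormone library overlapped with Mock, and the log2 change was 0.18 ± 0.033 in BAP, 0.40 ± 0.033 in IAA and 0.28 ± 0.033 in BAP+IAA (SE). MA_10426488g0010 had 112, 122 and 141 CPM in BAP, 106, 113 and 136 CPM in IAA and 123, 135 and 144 CPM in BAP+IAA, against 90.1, 99.5 and 115 CPM in Mock. Only BAP+IAA was clear of Mock, but all 3 treatments were called. The log2 change was 0.18 ± 0.046 in BAP, 0.27 ± 0.046 in IAA and 0.39 ± 0.046 in BAP+IAA (SE).

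In the mean of the 3 days the largest called falls were those of MA_62177g0010 and MA_120757g0010. MA_62177g0010 had 120, 130 and 148 CPM in BAP, 126, 138 and 146 CPM in IAA and 126, 132 and 134 CPM in BAP+IAA, against 140, 161 and 178 CPM in Mock. Its log2 change was -0.38 ± 0.041 in BAP, -0.19 ± 0.041 in IAA and -0.32 ± 0.041 in BAP+IAA (SE), and BAP+IAA alone did not overlap with Mock. MA_120757g0010 had 101, 119 and 149.5 CPM in BAP, 109, 119 and 124 CPM in IAA and 112, 131 and 163 CPM in BAP+IAA, against 131, 144 and 181 CPM in Mock. IAA was clear of Mock and the others overlapped with it. The log2 change was -0.38 ± 0.061 in BAP, -0.30 ± 0.061 in IAA and -0.19 ± 0.061 in BAP+IAA (SE), all called. Without Mock 15 days replicate 1 these changes were smaller, at -0.30, -0.24 and -0.13, and still called.

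The limit of 1.4 held the group means of every day together, so nothing is read from the counts of members called over time. Between 15 and 5 days 85 members differed in IAA, 21 higher and 64 lower at 15 days, where 38% of all tested models were called, 21.3% higher and 16.7% lower. The same comparison called 39 members in BAP, 45 in BAP+IAA and 1 in Mock, where 21.4, 20.9 and 1.69% of all tested models were called. Of the other abundant models 70.3% were called in IAA, 39.4% in BAP, 50.0% in BAP+IAA and 3.81% in Mock. In IAA the members' log2 change between 15 and 5 days had a median of -0.059 and ran from -0.48 to 0.48. MA_10432535g0010, named for its small replicate SD, had a fall in IAA that was large for a member. Its IAA libraries held 292.5, 288 and 297 CPM at 5 days. They held 241.7, 220.8 and 224.4 CPM at 10 days and 213.8, 217.3 and 228.2 CPM at 15 days. All Mock libraries lay at 206.6 to 231.4 CPM for this gene. Its IAA libraries were all above Mock at 5 days and overlapped with Mock at 15 days. With total counts BAP at 5 days was the highest of the 12 groups for 39 members and IAA at 5 days for 35, and IAA at 10 and at 15 days was the lowest for 34 and 40. With TMM BAP at 5 days was the highest for 15 members and IAA at 5 days for 49, and IAA at 10 and at 15 days was the lowest for 13 and 21. Set against same-day Mock, the IAA effect at 15 days differed from that at 5 days for 31 members, 9 of them with a more positive and 22 with a more negative log2 change, where 9.04 and 7.06% of all tested models were called, 16.1% in all. For BAP+IAA this count was 7 and for BAP it was 0, where 5.74 and 1.81% of all tested models were called. The log2 change of BAP+IAA departed from the sum of the BAP and IAA changes for 25 members at 5 days, 21 at 10 days and 19 at 15 days, where 16.1, 13.1 and 10.1% of all tested models were called.

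The direction of these small changes depended on how the libraries were scaled. TMM factors, which edgeR computes so that most genes keep their level, were 1.03 to 1.07 in BAP, 0.944 to 0.983 in IAA and 0.981 to 1.03 in BAP+IAA, against 0.972 to 1.003 in Mock. The members' median log2 shift of a library from the mean of all libraries was 0.011 to 0.084 in the 9 BAP libraries and -0.078 to 0.023 in the 9 IAA libraries, against -0.048 to 0.022 in Mock, when CPM used total counts. With TMM it was -0.065 to -0.013 in BAP and -0.023 to 0.066 in IAA, against -0.039 to 0.032 in Mock. By its median, BAP was thus the highest treatment with total counts and the lowest with TMM. With RLE size factors 33 members were called higher and 60 lower in BAP over the 3 days, where 24.7% of all tested models were called higher and 25% lower, close to the split with TMM given next.

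**Figure D4:**
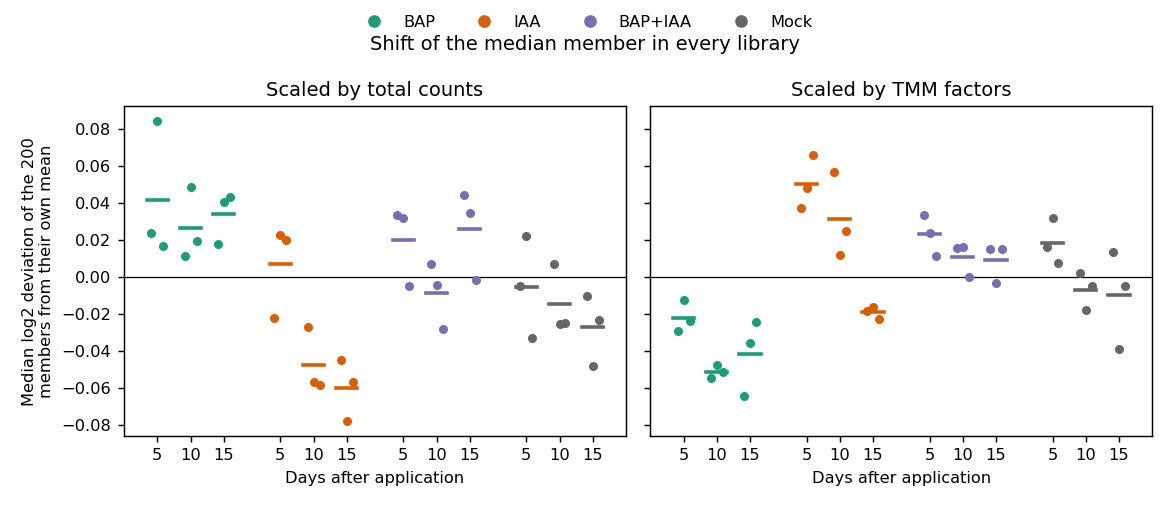
Median log2 shift of the 200 members in each library from their own means over all 36 libraries (y axis) by treatment and day (x axis), 1 point per library and a line at each group mean, with total counts and with TMM factors in separate panels. BAP libraries sit at 0.011 to 0.084 with total counts and at -0.065 to -0.013 with TMM.

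The calls followed the scaling. In BAP against Mock over the 3 days, 29 members were called higher and 63 lower with TMM, where 24.3 and 25.3% of all tested models were called in these directions. With total counts 68 were higher and 29 lower, where 30.2 and 20.6% of all models were. In IAA the split was 62 higher and 45 lower with TMM, where 30 and 28.4% of all models were called, and 51 higher and 57 lower with total counts, where 27.9 and 30.3% were. In BAP+IAA it was 67 higher and 57 lower with TMM, where 32 and 30.5% were called, and 75 higher and 53 lower with total counts, where 32.8 and 29.6% were. BAP+IAA was thus the treatment whose split changed least.

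On single days the splits of BAP turned round as well. At 5 days 9 members were higher and 34 lower with TMM, where 11.1 and 13.3% of all models were called, and 30 were higher and 9 lower with total counts, where 14.3 and 10.4% were. At 10 days they were 18 and 35 with TMM and 33 and 13 with total counts, and at 15 days 14 and 34 with TMM and 45 and 16 with total counts, where 14 and 15.7% and then 15.6 and 15.9% of all models were called with TMM and 17.7 and 12.9% and then 19.8 and 13.2% with total counts. In IAA at 10 days 48 were higher and 20 lower with TMM, and 34 were higher and 41 lower with total counts, where 21 and 18.1% and then 18.2 and 20.8% of all models were called. TMM takes 1 library as its reference, and when 1 of 10 libraries was left out that reference became Mock 15 days replicate 2. In those 10 refits 21 to 24 members were higher and 14 or 15 lower in BAP at 5 days, and the log2 factors of BAP exceeded those of Mock by 0.0576 to 0.0587, against 0.068 to 0.0946 in the other 26. How all tested models split in those 10 refits is not given, so nothing is read about the members apart from other models. MA_89633g0010, the member with the smallest ratio with total counts, was called lower in BAP with TMM (edgeR adjusted p = 0.048), with a log2 change of -0.11 ± 0.046 (SE), while its mean CPM was 105 in BAP and 107 in Mock.

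**Figure D5:**
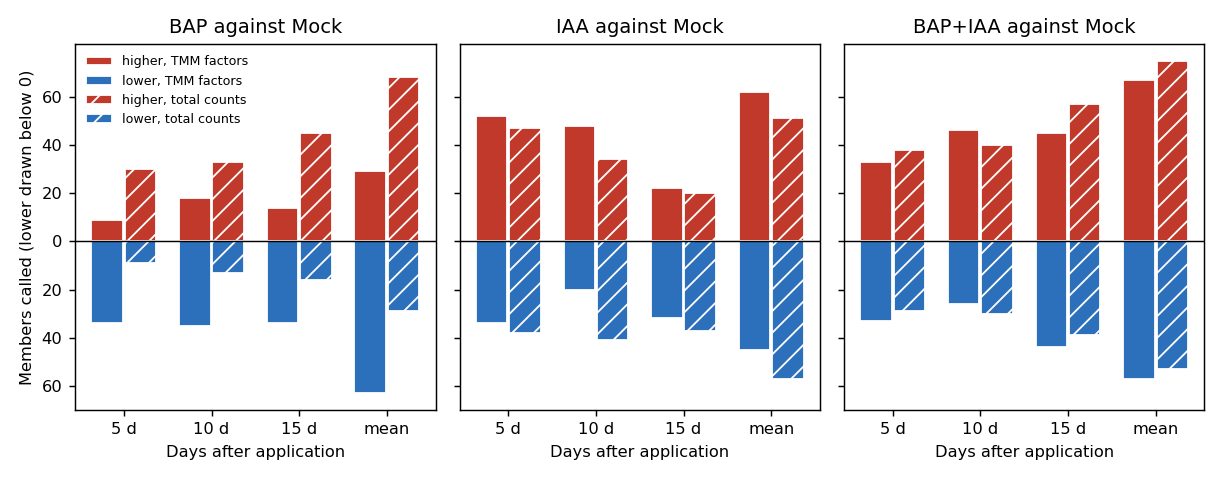
Number of members called higher and lower than Mock (y axis, bars start at 0, lower calls drawn downwards) at 5, 10 and 15 days and in the mean of the 3 days (x axis) for each hormone treatment with TMM factors and with total counts. In BAP at 5 days 9 members were higher and 34 lower with TMM, and 30 were higher and 9 lower with total counts.

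Membership itself rested on the scaling for part of the list. With TMM-scaled CPM 164 members stayed under the ratio of 1.4, and the highest reached 1.52. With RLE size factors, the scaling of DESeq2, 161 stayed under it. A list chosen anew shared 153 genes with TMM and 150 with RLE size factors.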

How the data were processed

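Total RNA of hypocotyls was sequenced in 36 libraries, 3 for each of 4 treatments on 3 days. The authors deposited whole-number read counts per gene model that were not normalised. Per the submitters' processing notes the tools were Trimmomatic, STAR and HTSeq, with no versions. The strand setting, annotation and build were not stated in those notes, so overlapping, antisense and near-identical gene models may share or lose reads. CPM and log2 CPM (prior count 2) were computed from the counts. All 70736 models entered the choice of members. Of these, 38239 passed filterByExpr, all 200 members among them, and were fitted in edgeR 4.0.16 (R 4.3.3, limma 3.58.1) with TMM factors, 12 group means and 24 residual degrees of freedom. Quasi-likelihood tests were 2-sided, with Benjamini-Hochberg adjustment over all tested models at 0.05. Standard errors were derived from the log2 change and its F value. The models were tested on simulated data. Members and contrasts were chosen with earlier results of these data known. Named genes were those highest in level, smallest and largest in ratio, last by abundance, smallest and largest in replicate SD, largest in called change in each direction, lowest in p for replicate number, and next to each limit. DESeq2 1.42.0, total counts, RLE size factors, an unfiltered table, a replicate block, other ratio limits and leaving out each library were tried as alternatives.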

Additional observations from a re-analysis of the deposited data

Results flagged for a closer look

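Between 15 and 5 days the IAA effect against same-day Mock differed for 31 members in edgeR, 9 with a larger and 22 with a smaller log2 change at 15 days, where 16.1% of all tested models were called. The BAP+IAA effect differed for 7 members, where 5.74% of all tested models were called. The BAP effect differed for 0 members, where 1.81% of all tested models were called. Of the other abundant models 49.8% were called for IAA, 16.2% for BAP+IAA and 3.26% for BAP. The choice of members used these group means, so nothing is read from the counts. The difference was -0.35 ± 0.073 on the log2 scale for MA_434977g0010 (SE), -0.45 ± 0.079 for MA_10432535g0010, -0.26 ± 0.078 for MA_10427661g0030 and 0.38 ± 0.122 for MA_91881g0010. The last is the only one of these 4 with a more positive effect at 15 days, and its levels were 117 ± 10.1 CPM at 5 days and 140 ± 3.75 CPM at 15 days in IAA, against 148 ± 4.57 CPM and 136.5 ± 15.9 CPM in Mock (SD, n = 3 each).

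The log2 change of BAP+IAA differed from the sum of the changes of BAP and IAA for 25 members at 5 days, 21 at 10 days and 19 at 15 days in edgeR, where 16.1, 13.1 and 10.1% of all tested models were called. Of the other abundant models 50.8, 27.7 and 20.5% were called. The choice used these group means too, and the counts of the 3 days were not compared by a test.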

How the results depend on the processing

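With all libraries and the limit of 1.4 kept, 52 summary values were recomputed under other scalings, filters, tools or the block. Each count stayed within 1.5 times the reported one. The median ratio and the median share of reads stayed within the spread between replicates, and the median replicate SD within its spread between groups. The balance of higher and lower calls changed with the scaling as described. A limit of 1.3 gave a list sharing 93 genes with the members, and a limit of 1.5 one sharing 124. Leaving out 1 library gave 85 to 94 called members in BAP, 101 to 114 in IAA and 117 to 129 in BAP+IAA for the means of the 3 days, and 31 to 54 in BAP at 10 days. It gave lists sharing 154 to 199 genes, with a whole replicate number left out at the low end. In BAP, IAA and BAP+IAA, DESeq2 called 94, 116 and 127 members, where 50.4, 58.9 and 62.9% of all tested models were called. Without the filter 85, 106 and 121 were called, where 36, 43.3 and 46.8% were. In BAP 37 of these were higher and 48 lower, where 18.8% of all models were higher and 17.2% lower. RLE size factors gave 31 higher and 27 lower in IAA at 15 days, where 18.6 and 14% of all models were called. TMM gave 22 and 32 there, where 32.4% of all models were called in either direction. In BAP at 15 days RLE size factors gave 21 higher and 32 lower, where 16.3 and 15.3% were. The replicate number test called 2 to 4 members over the 36 refits, and the adjusted p of MA_10432047g0010 ran from 0.014 to 0.13.

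The labels do not say what a replicate number marks, and the libraries were not treated as paired. Over 198 same-number pairs of libraries the deviations from the group means correlated at -0.087 to 0.278, with 59 pairs over 0.1 and a median of 0.054, against -0.033 for pairs of different numbers. By mean correlation 23 of 36 libraries were closest to their own number, and 2.96% of all tested models were called for replicate number, so part of the deviations went with the number, as a hint from the data. The replicate block gave 96, 107 and 125 called members in BAP, IAA and BAP+IAA, where 50.3, 59 and 63.1% of all tested models were called.

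With 1000 or more reads per member in every library, depth did not limit the levels. The limits are the unknown gene names and transcript lengths, the relative scale and the 3 libraries per group.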

Other observations

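No call was made for 25 members in any of the 12 hormone comparisons with TMM, for 25 with RLE size factors and for 18 with total counts, where 16.6, 16.5 and 15.5% of all tested models had none. As a share of the 200 members these are 12.5, 12.5 and 9%. Of the other abundant models 0.725, 0.725 and 0.544% had none. There were 10 members with no call under any of these scalings. These 10 were chosen after their values were seen. They include MA_107903g0010 at 380 CPM with a ratio of 1.27, MA_130537g0010 at 232 CPM with 1.23 and MA_885666g0010 at 109 CPM with 1.15. The 25 had a median replicate SD of 0.0987 against 0.0811 for the other 175, so lack of a call went with a larger spread between replicates as well as with a median ratio of 1.28 against 1.32.

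Identifiers end in a number that was taken here as the order of models on a scaffold. The first model of its scaffold was the member for 172 of 200 (86%), for 89.1% of the other abundant models and for 89.9% of all tested models. No 2 members shared the scaffold part of the identifier, and for 20 members the same part occurred on another tested model.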
